A study of Mus musculus with 11 samples.

Results

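Draxin, Dcc, Unc5a, Unc5b, Unc5c, Unc5d, Robo1, Robo2, Cntn2 and Epha6 are axon guidance genes of the netrin, Draxin and Slit receptor systems, together with a contactin and an Eph receptor. They were taken by gene symbol from a table of FMRP-bound RNA fragments, where they are 10 of 30986 rows. FMRP is the RNA-binding protein lost in Fragile X syndrome. Mouse brain regions were taken on postnatal day 13, ground, and irradiated with ultraviolet light (254 nm, 3 exposures of 400 mJ) to fix proteins to RNA. FMRP was then immunoprecipitated, and the RNA that came down was sequenced and counted per gene. The groups were cerebellum (2 samples), cortex (3 samples) and hippocampus (4 samples, of which hippocampus 1+2 is the sum of a pair of libraries that differed by no more than sampling noise). The labels give no strain, genotype, sex or treatment for any group, and no input library or library from mice without FMRP was analysed here. A value is therefore FMRP-bound fragments in a whole tissue, and the amount of a transcript and its binding by FMRP cannot be told apart.

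Netrins are secreted cues that steer growing axons and migrating neurons. Dcc is the receptor through which netrin attracts, and the Unc5 receptors mediate repulsion from netrin, alone or together with Dcc. Draxin is a secreted protein that binds both netrin and Dcc. Slit proteins repel axons through Robo receptors. Cntn2, also known as TAG-1, is a cell adhesion molecule carried on young axons, among them those of cerebellar granule cells before they migrate inward. Epha6 is a receptor tyrosine kinase for ephrin-A ligands. In mice, loss of Unc5c causes the rostral cerebellar malformation, in which granule and Purkinje cells settle outside the cerebellum.

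In GENCODE M21 on GRCm38, the build called mm10 in the submitters' processing notes, Draxin lies on chromosome 4 from 148098437 to 148130698 on the minus strand. Unc5b lies on chromosome 10 from 60762593 to 60831581, also on the minus strand, and Unc5c on chromosome 3 from 141465216 to 141834924 on the plus strand. Cntn2 lies on chromosome 1 from 132509427 to 132543256 and Epha6 on chromosome 16 from 59653483 to 60605531, both on the minus strand. The gene spans ran from 32.3 kb for Draxin to 1097.4 kb for Dcc. Exons of 3 genes shared bases with exons of another gene on the opposite strand. These were Unc5a with 34 bases of Hk3, Unc5c with 118 bases of Gm15688, and Epha6 with 107 bases of Gm9017. The sources used here do not say whether strand was used in counting. Hk3 had 11 counts and Gm15688 9 counts over the 9 samples, against 76 for Unc5a and 303 for Unc5c.

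The deposited counts do not say where in a transcript a fragment lay. The sequences below are therefore not bound sites. They show, for the genes that passed a test between regions, the 90 coding bases richest in TGGA and AGGA, 4-letter words of the kind reported as enriched in FMRP-bound RNA. Each was read from the longest-coding GENCODE M21 transcript, on the transcript strand only, with the matches in capitals and overlapping matches counted.
Draxin: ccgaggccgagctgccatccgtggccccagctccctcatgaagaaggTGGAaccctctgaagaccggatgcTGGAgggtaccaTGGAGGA
Unc5b: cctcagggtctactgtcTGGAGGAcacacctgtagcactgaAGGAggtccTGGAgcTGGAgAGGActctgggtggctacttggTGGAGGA
Unc5c: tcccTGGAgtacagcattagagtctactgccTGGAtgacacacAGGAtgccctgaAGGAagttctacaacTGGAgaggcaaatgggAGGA
Cntn2: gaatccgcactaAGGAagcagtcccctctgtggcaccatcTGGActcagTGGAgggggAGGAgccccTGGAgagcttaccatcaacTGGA
Epha6: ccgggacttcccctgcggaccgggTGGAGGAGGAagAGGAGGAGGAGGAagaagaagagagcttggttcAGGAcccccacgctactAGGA

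The windows start at coding base 429 in Draxin, 2133 in Unc5b, 2137 in Unc5c, 2111 in Cntn2 and 137 in Epha6. The Draxin window held 4 matches, a number that 72.6% of 21498 coding genes reach in their own richest window. The Unc5b window held 8, which 4.4% of coding genes reach, and the Epha6 window 9, which 2.32% reach. Unc5c and Cntn2 each held 6, which 23.0% reach. These shares are not matched for length, and a longer coding sequence offers more windows. Unc5b has 2838 coding bases and Epha6 3393, against a median of 1191 over coding genes. The Unc5b and Unc5c windows fall on the same stretch of both receptors: over 76 overlapping bases, 55 were identical, or 72.4%. Over whole coding sequences the members had 15.69 to 20.2 matches per coding kb, which is percentile 49.5 to 79.7 of 21501 coding genes, whose median was 15.75. The words ACTG and ACTT, counted in the same way, came to 8.29 to 14.02 per coding kb, against a median of 8.59. Unc5c was highest, at percentile 94.0.

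Unc5 receptors are similar in sequence, so fragments could in principle be shared between rows. Aligned coding sequences of the Unc5 pairs were 60.5% to 68.7% identical, and the longest stretch that any pair shared letter for letter was 27 bases, in Unc5b and Unc5c. Robo1 and Robo2 were 61.9% identical, with a longest shared stretch of 19 bases. How fragments that match more than 1 gene were assigned is not given in the sources used here.

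Library totals were 95454 and 197382 counts in cerebellum, 11898 to 55784 in cortex and 21531 to 130306 in hippocampus. Values are given as CPM, counts divided by the library total and scaled to 1000000, so that 1 count was worth 5.066 CPM in the deepest sample and 84.05 CPM in the shallowest. The 10 genes had 839 counts in cerebellum, 129 in cortex and 451 in hippocampus. As a check of the tissue labels, granule cell markers, 15 genes, summed to 6622 and 8014 CPM in cerebellum and 774.7 to 1287 CPM in the forebrain samples (cortex and hippocampus together). Telencephalic excitatory markers, 12 genes, summed to 209.5 and 314.1 CPM in cerebellum and 1513 to 3994 CPM in forebrain. Cortical neuron markers summed to 1400 to 2814 CPM in cortex and 789.6 to 1074 CPM in hippocampus. Within that list, all genes but Fezf2 had the higher mean in cortex, and Fezf2 averaged 5.975 CPM there against 56.14 CPM in hippocampus. Hippocampal neuron markers summed to 336.2 to 681.2 CPM in cortex and 1031 to 2880 CPM in hippocampus. The cerebellum samples, at 1479 and 1519 CPM, lay inside the hippocampal range. This list therefore told hippocampus from cortex but not from cerebellum. Its largest part, Zbtb20, averaged 984.0 CPM over the hippocampus samples and 925.4 CPM over the cerebellum samples. Predicted genes with names of the Gm series took 12.2% to 12.57% of the counts in cortex 3, hippocampus 3 and hippocampus 4, and 3.105% to 7.489% in the other samples.

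Fragments of Draxin, Unc5b, Unc5c and Cntn2 were higher in the cerebellum than in the forebrain, and those of Unc5a, Robo1, Robo2 and Epha6 did not pass the test in either direction. This is 4 of the 8 members that passed the filter on low counts, against 3.9% of all 1720 rows tested that were called higher (edgeR quasi-likelihood test, Benjamini-Hochberg adjusted p under 0.05), 3.78% called lower and 7.67% called either way. Draxin, Unc5b and Unc5c passed this filter only through the cerebellum samples, as their forebrain values reached no more than 91.14, 91.14 and 127.9 CPM. The members were also chosen with earlier results of these data known, so these shares describe the set and are no test of it. Dcc and Unc5d missed the filter and were compared by an exact permutation test. Over all 10 members, 5 had both cerebellum samples above all 7 forebrain samples (the 4 genes named and Dcc), and 0 had both below. Among 13656 rows with at least 10 counts, 3.37% were above in this way and 1.01% below. Both are for CPM of library totals. With the TMM scaling factors of the edgeR fits, Dcc overlapped, at 144.4 CPM in cerebellum 2 and 176.7 CPM in hippocampus 4. The 4 genes named stayed apart. The median log2 fold change of the 8 tested members was 1.18, against 0.0023 over all tested rows. It is the midpoint between Robo2 and Cntn2, so it does not depend on the fitted value of Draxin. In bulk tissue, fewer cells of a type and less RNA per cell cannot be told apart.

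**Figure D1:**
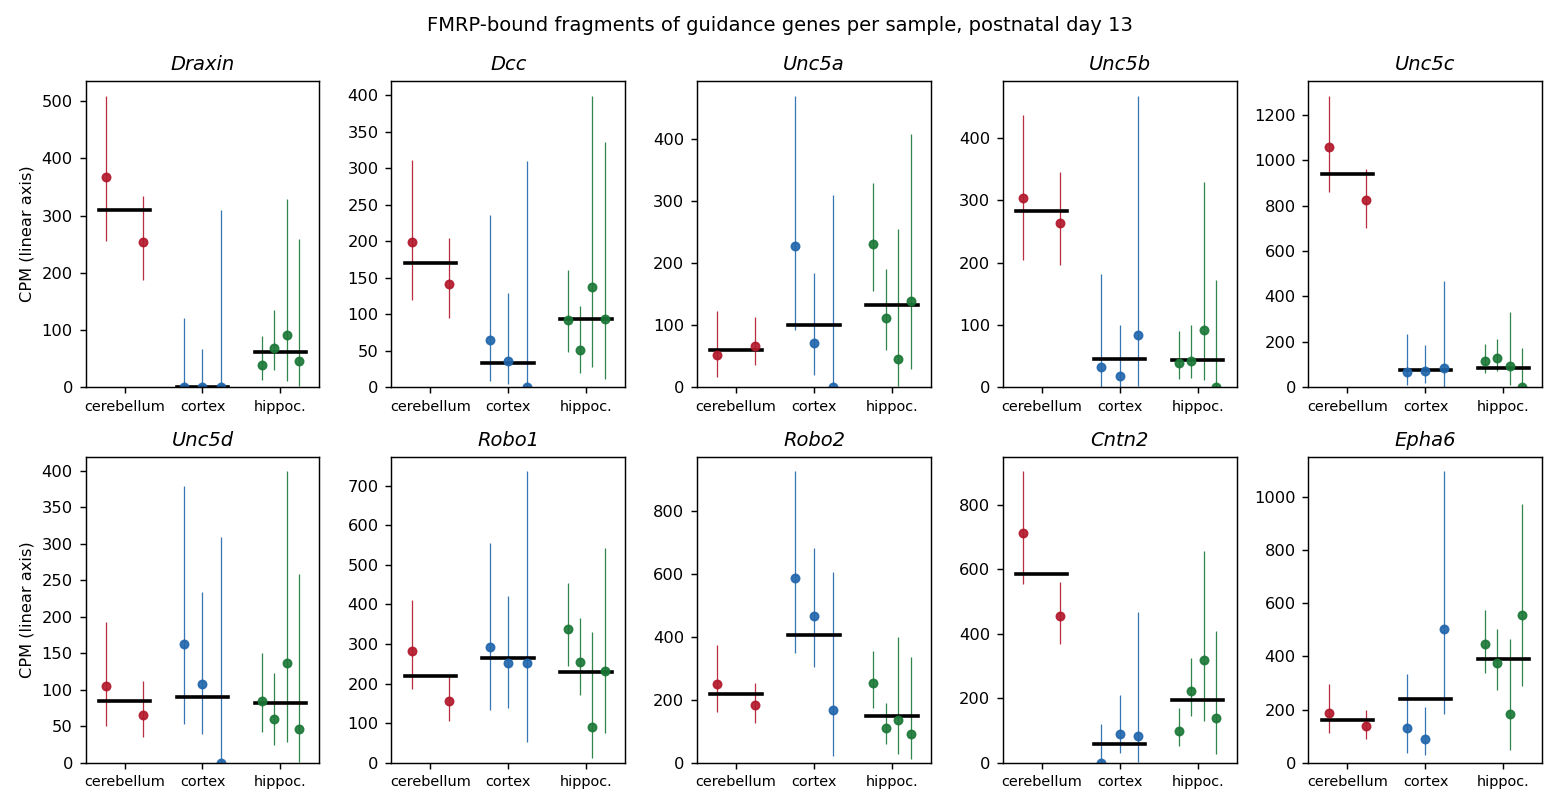
CPM of library totals for each of the 10 genes (vertical axis, linear, own scale per gene) by sample, with cerebellum on the left, then cortex and hippocampus. Points are samples, thin bars exact 95% binomial intervals that cover counting error only, and thick lines region means. Draxin, Dcc, Unc5b, Unc5c and Cntn2 have both cerebellum points above every forebrain point.

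Draxin, the secreted cue of the set, had 366.7 and 253.3 CPM in the cerebellum samples, 0 CPM in all 3 cortex samples, and 38.37, 68.19, 91.14 and 46.44 CPM in the hippocampus samples. Both cerebellum samples were high, the hippocampus samples were low, and no counts were seen in the cortex, so the 3 regions did not overlap. The fitted log2 difference of cerebellum over forebrain was 4.86 (approximate SE 1.02, adjusted p = 0.000149 by edgeR), the 20th smallest p of the 1720 rows. That fit takes in the cortex samples at 0, so its size depends on the prior count. Measured against a floor of 3 counts over the whole cortex group, or 30.49 CPM, the cerebellar mean of 310.0 CPM was 10.17 times as high. That mean has an error of its own, so the ratio is no strict lower bound. The difference of cerebellum over cortex was called (edgeR adjusted p = 0.00238). Over the hippocampus the log2 difference was 2.20 (SE 0.68, adjusted p = 0.0233), and with single samples left out it ran from 1.11 to 3.24 and was called in 5 of 9 fits. DESeq2 did not call Draxin over the hippocampus (adjusted p = 0.202).

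The hippocampus samples were above the cortex samples for Draxin in 4 of 4 cases. Against the same floor, the hippocampal mean of 61.04 CPM was 2.002 times as high. This ratio is no strict lower bound either, as the mean rests on 16 counts. The difference of cortex over hippocampus was not called by edgeR (unadjusted p = 0.00612, adjusted p = 0.845). The cortex group held 98403 counts in all, and a count of 0 in single cortex samples allows up to 53.78 to 252.1 CPM. Low levels in cortex were therefore not detectable at this depth.

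Dcc, the netrin receptor for attraction, had 199.0 and 141.9 CPM in cerebellum, 65.1, 35.85 and 0 CPM in cortex, and 92.09, 51.14, 136.7 and 92.89 CPM in hippocampus. On library totals the cerebellum samples were the highest of the 9, with hippocampus 4 close below at 136.7 CPM from 3 counts. With the TMM factors, hippocampus 4 was at 176.7 CPM, above cerebellum 2 at 144.4 CPM. The mean was 170.5 ± 40.4 CPM in cerebellum (SD, n = 2) and 67.68 ± 44.5 CPM in forebrain (SD, n = 7). A two-sided exact permutation test over samples gave p = 0.0278, the smallest that the 36 possible splits allow, with no adjustment over genes. It was run on library totals only. With the TMM factors the cerebellum samples are not the 2 highest, so this smallest p depends on the scaling and on a sample with 3 counts. Cortex averaged 33.65 CPM and hippocampus 93.21 CPM (exact permutation p = 0.0857 over 35 splits). The genes were chosen with results of these data known, and this p is not corrected for that choice.

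The Unc5 receptors differed among themselves. Unc5c had 1058 and 825.8 CPM in cerebellum, 65.1, 71.71 and 84.05 CPM in cortex, and 115.1, 127.9, 91.14 and 0 CPM in hippocampus. The highest forebrain sample, at 127.9 CPM, was far below the lower cerebellum sample, at 825.8 CPM. The log2 difference of cerebellum over forebrain was 3.06 (SE 0.54, adjusted p = 4.49e-06 by edgeR), the 6th smallest p of the 1720 rows. It was 3.36 (SE 0.81, adjusted p = 0.00359) over cortex and 2.76 (SE 0.51, adjusted p = 1.78e-05) over hippocampus.

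Unc5b had 303.8 and 263.4 CPM in cerebellum, 32.55, 17.93 and 84.05 CPM in cortex, and 38.37, 42.62, 91.14 and 0 CPM in hippocampus. All forebrain samples were low, and each cortex value came from a single count. Unc5b was higher over forebrain by a log2 difference of 2.89 (SE 0.77, adjusted p = 0.00519 by edgeR) and over hippocampus by 2.49 (SE 0.71, adjusted p = 0.0109). Over cortex the log2 difference was 3.29 (SE 1.17, adjusted p = 0.0785), which was not called. Unc5b is also known as a receptor of endothelial cells. The 7 endothelial markers summed to 146.7 and 177.3 CPM in cerebellum and 65.1 to 252.1 CPM in forebrain, and their part in the result was not tested.

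Unc5a ran the other way in its means without passing a test. It had 52.38 and 65.86 CPM in cerebellum, 227.9, 71.71 and 0 CPM in cortex, and 230.2, 110.8, 45.57 and 139.3 CPM in hippocampus. The cerebellum samples lay within the forebrain range, with 5 of 7 forebrain samples above both. The log2 difference of cerebellum over forebrain was -1.50 (SE 0.76, edgeR adjusted p = 0.276).

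Unc5d, a member of the family that also binds Flrt proteins, was at a like mean level in the regions. It had 104.8 and 65.86 CPM in cerebellum, 162.8, 107.6 and 0 CPM in cortex, and 84.42, 59.66, 136.7 and 46.44 CPM in hippocampus. The mean was 85.31 ± 27.5 CPM in cerebellum (SD, n = 2) and 85.36 ± 55.7 CPM in forebrain (SD, n = 7), and the samples overlapped throughout. The exact permutation test gave a two-sided p of 1.0 for cerebellum against forebrain and 0.829 for cortex against hippocampus. With 56 counts in all, a modest difference in Unc5d was not detectable at this depth.

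The make-up of the Unc5 family followed from these levels. Unc5c took 69.66% and 67.63% of the Unc5 counts in the cerebellum samples and between 0.0% and 50.0% in the forebrain samples. Its mean share was 68.6 ± 1.4% in cerebellum (SD, n = 2) and 25.3 ± 16.1% in forebrain (SD, n = 7). Unc5a had 4.42 ± 1.38% of the family in cerebellum and 34.7 ± 25.0% in forebrain, and Unc5d 6.15 ± 1.06% in cerebellum and 24.5 ± 14.0% in forebrain. The share of Unc5b was 20.8 ± 1.1% in cerebellum, inside the forebrain range of 0.0% to 50.0%. Shares of 1 family add up to the whole, so a high share of Unc5c lowers those of the others. The cerebellar shares rest on 145 and 241 counts, and those of cortex 3 and hippocampus 5 on only 2 and 4 counts.

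**Figure D2:**
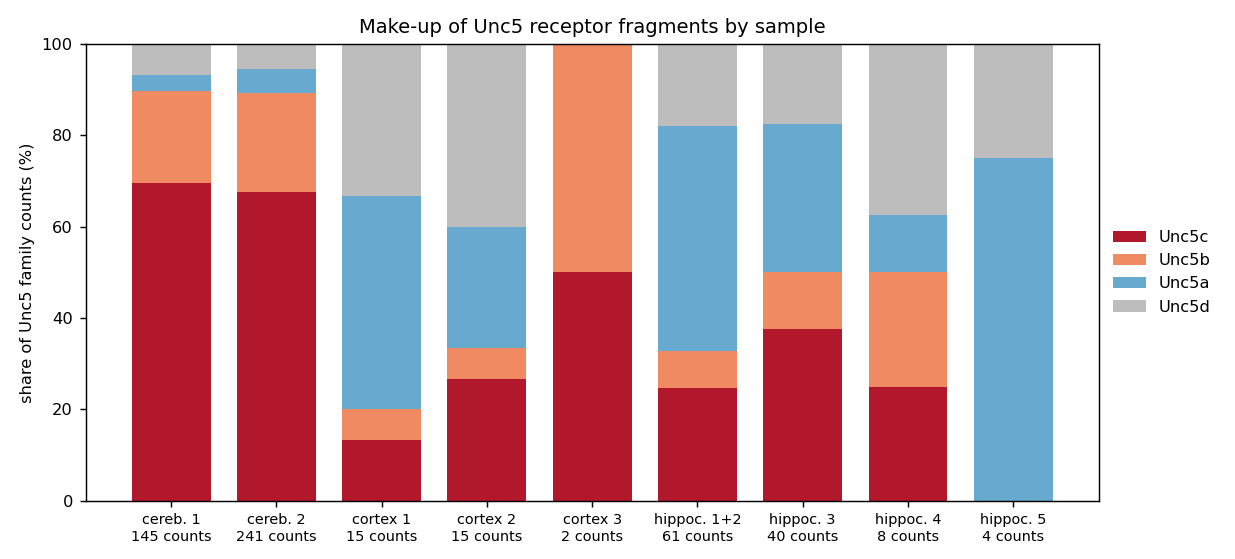
Share of the Unc5 family counts (vertical axis, percent) taken by Unc5c, Unc5b, Unc5a and Unc5d in each of the 9 samples, with the family counts under each bar. Unc5c fills 69.66% and 67.63% of the cerebellum bars and at most 50.0% of a forebrain bar, where family counts run from 2 to 61.

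The Slit receptors showed no difference that passed a test. Robo1 had 282.9 and 157.1 CPM in cerebellum, 293.0, 251.0 and 252.1 CPM in cortex, and 337.7, 255.7, 91.14 and 232.2 CPM in hippocampus. All regions overlapped, and the log2 difference of cerebellum over forebrain was -0.55 (SE 0.52, edgeR adjusted p = 0.711). Robo2 had 251.4 and 182.4 CPM in cerebellum, 585.9, 466.1 and 168.1 CPM in cortex, and 253.3, 110.8, 136.7 and 92.89 CPM in hippocampus. The highest values for Robo2 were in cortex 1 and cortex 2, while cortex 3 was low, at 168.1 CPM from 2 counts. Cerebellum over forebrain gave a log2 difference of -0.46 (SE 0.53, adjusted p = 0.791) for Robo2. Cortex over hippocampus gave 1.16 (SE 0.55, unadjusted p = 0.0348, adjusted p = 0.999), and within the title codes that hold both regions the cortex was 2.314-fold and 2.762-fold higher. Robo1 and Robo2 shared their counts almost evenly in cerebellum, where Robo1 had 49.6 ± 4.7% of the pair (SD, n = 2). Its share was 42.8 ± 14.9% in cortex (SD, n = 3) and 59.6 ± 14.5% in hippocampus (SD, n = 4).

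Cntn2, the axonal adhesion molecule, had 712.4 and 456.0 CPM in cerebellum, 0, 89.63 and 84.05 CPM in cortex, and 99.77, 221.6, 319.0 and 139.3 CPM in hippocampus. The samples of the 3 regions did not overlap: cerebellum was highest, hippocampus between and cortex lowest. The gap between the cortex samples and the lowest hippocampus sample was within counting error. Over the whole groups, Cntn2 had 6 of 98403 counts in cortex and 49 of 291103 in hippocampus. Cortex 1 had no count, which allows up to 97.65 CPM, and cortex 3 had 1 count (exact 95% interval 2.128 to 468.2 CPM), against 99.77 CPM in the lowest hippocampus sample. The log2 difference was 2.81 (SE 0.58, adjusted p = 0.000123 by edgeR) over forebrain, 3.93 (SE 0.82, adjusted p = 0.000395) over cortex and 1.70 (SE 0.52, adjusted p = 0.0229) over hippocampus. The hippocampus call depended on single samples: with 1 sample left out the difference ran from 0.58 to 3.06 and was called in 3 of 9 fits with the title code and 2 of 9 without it. With all samples it was lost without the title code (adjusted p = 0.122), with library totals (adjusted p = 0.0665) and by DESeq2 (adjusted p = 0.202). The difference of cortex over hippocampus was -2.23 (SE 0.76, unadjusted p = 0.00333, adjusted p = 0.694), which was not called.

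Epha6 had 188.6 and 136.8 CPM in cerebellum, 130.2, 89.63 and 504.3 CPM in cortex, and 445.1, 375.0, 182.3 and 557.3 CPM in hippocampus. Both cerebellum samples were low, but so were cortex 1, cortex 2 and hippocampus 4, and the regions overlapped. Epha6 fell by 1.54 on the log2 scale in cerebellum against hippocampus (SE 0.52, adjusted p = 0.0468 by edgeR), a call just inside the threshold. With the title code in the fit, it was lost when either cerebellum sample, cortex 1, cortex 2 or any hippocampus sample was left out, and it held without cortex 3 (adjusted p = 0.0228). It was also lost without the title code (adjusted p = 0.126) and by DESeq2 (adjusted p = 0.372). Against forebrain the log2 difference was -0.79 (SE 0.55, adjusted p = 0.533). Cortex over hippocampus gave -1.51 (SE 0.59, unadjusted p = 0.0101, adjusted p = 0.89).

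In the pairwise comparisons, 3 of the 8 tested members were called higher in cerebellum than in cortex (Draxin, Unc5c and Cntn2), where 2.21% of the 1720 rows were called higher, 2.38% lower and 4.59% either way. Against hippocampus 4 members were called higher (these and Unc5b), where 3.08% of rows were, and 1 lower (Epha6), where 3.31% were, with 6.4% of rows called either way. Both comparisons share the 2 cerebellum samples and so are not independent of each other. The limits from the filter and from the choice of members, given above, hold for these counts as well. Between cortex and hippocampus 0 members were called, and edgeR called 0.0% of the 1720 rows, with 68 rows at an unadjusted p under 0.05. Of the members, 4 had an unadjusted p under 0.05 there: Cntn2, Draxin and Epha6 with lower fitted values in cortex and Robo2 with a higher one. DESeq2 called 1 row there, and 0 members. Draxin and Cntn2 were the 2 members whose cortex samples were all below the hippocampus samples, a pattern shown by 3.23% of the 13656 rows, and 1.27% showed the opposite one. The cerebellum samples were above all cortex samples in 5 members and below in 0, where 22.9% of rows were above and 4.91% below. They were above all hippocampus samples in 5 members and below in 0, where 6.77% of rows were above and 5.05% below. Dcc is among these 5 on library totals but not with the TMM factors.

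**Figure D3:**
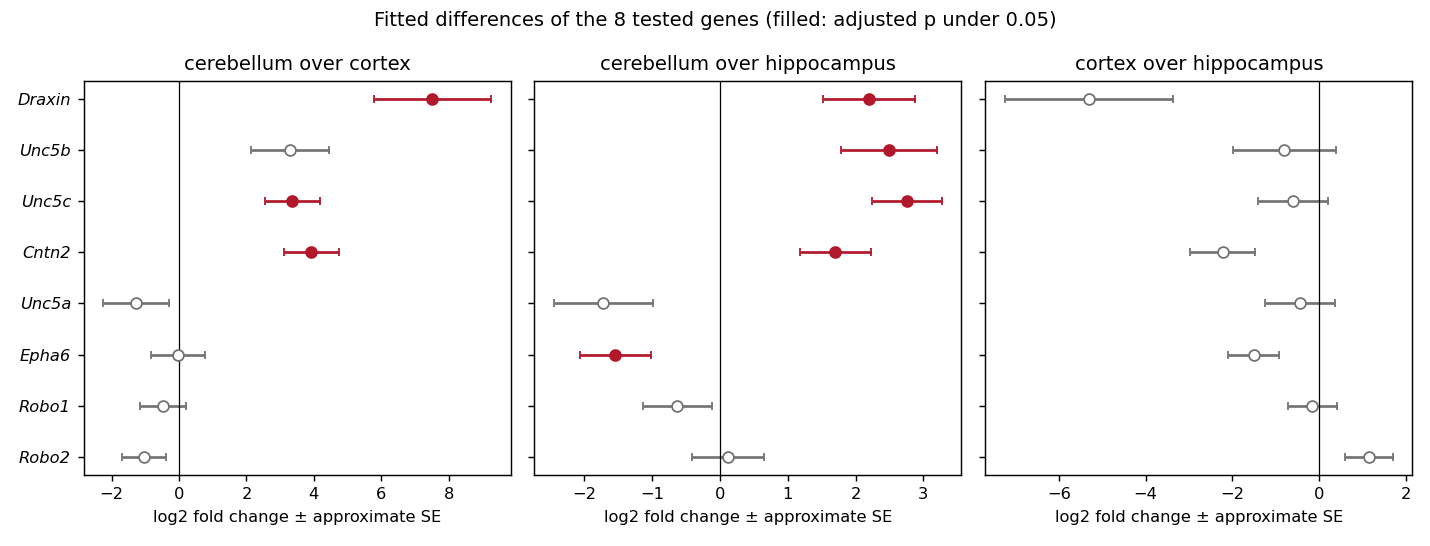
Fitted log2 fold change ± approximate SE (horizontal axis) of the 8 tested genes for cerebellum over cortex, cerebellum over hippocampus and cortex over hippocampus. Filled points have an edgeR adjusted p under 0.05: 3 genes in the left panel, 5 in the middle and 0 on the right. The values for Draxin over or against cortex rest on cortex samples at 0 and are no bound.

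Levels per length put the members in a different order in each region. In cerebellum, mean CPM per coding kb was 330.2 for Unc5c, 300.4 for Draxin, 187.1 for Cntn2 and 99.9 for Unc5b, and the other 6 genes lay between 21.92 and 47.95. The order at the top depends on the length used. Per kb of all annotated exons, Cntn2 had 62.81 CPM, Draxin 59.61, Unc5c 49.21 and Unc5b 45.31. In cortex, Robo2 led with 89.6 CPM per coding kb, then Epha6 with 71.14 and Robo1 with 54.84, and Draxin was at 0. Per kb of all annotated exons, Epha6 led in cortex with 45.63 CPM, and Robo2 and Unc5a had 23.95 CPM each. In hippocampus, Epha6 led with 114.9 CPM per coding kb, then Cntn2 with 62.42, Draxin with 59.14 and Unc5a with 48.75. There Epha6 also led per kb of all exons with 73.71 CPM, then Unc5a with 31.53, and Draxin had 11.74. Neighbours in these orders were within the spread between samples: in cortex the SD of Robo2 was 215.1 CPM on a mean of 406.7 CPM, and that of Epha6 228.6 CPM on 241.4 CPM.

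The numeric code in each sample title allowed the regions to be compared inside a code, and the labels do not say what the code stands for. One code held cerebellum 1 with cortex 1 and hippocampus 1+2, and another held cerebellum 2 with hippocampus 3. Unc5c was 11.74-fold higher in cerebellum in the first and 6.459-fold in the second, and Unc5b 8.567-fold and 6.182-fold. Cortex 1 gave only 2 counts of Unc5c and 1 of Unc5b to these folds. For Draxin the first code had 366.7 CPM in cerebellum 1, 0 in cortex 1 and 38.37 CPM in hippocampus 1+2, and for Cntn2 712.4, 0 and 99.77 CPM. In the second code, which holds no cortex sample, Draxin was 3.715-fold and Cntn2 2.058-fold higher in cerebellum. Dcc was 2.533-fold and 2.774-fold higher. Unc5a was at 0.2287 and 0.5944 of the forebrain level and Epha6 at 0.6556 and 0.3647, while Robo2 was below in the first code (0.5992) and above in the second (1.646).

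With 2 cerebellum samples, the calls depended on single samples. In the fits without cerebellum 1 or cerebellum 2, the lone cerebellum sample is assumed to vary like the other groups. Without cerebellum 1, 0 members were called over forebrain with the title code in the fit, and without the title code Unc5c alone was (log2 difference 3.38, adjusted p = 9.94e-05). Without cerebellum 2, 2 members were called with the title code, Unc5c and Cntn2. Without cortex 1, the only sample that ties the cortex to a cerebellum sample of the same code, 0 were called with the title code and 4 without it. Without hippocampus 1+2, Unc5b was not called (adjusted p = 0.134). The log2 difference stayed above 0 in all these fits and, with the title code, ran from 3.96 to 5.80 for Draxin, 2.47 to 3.28 for Unc5b, 2.41 to 3.60 for Unc5c and 1.60 to 4.06 for Cntn2.

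**Figure D4:**
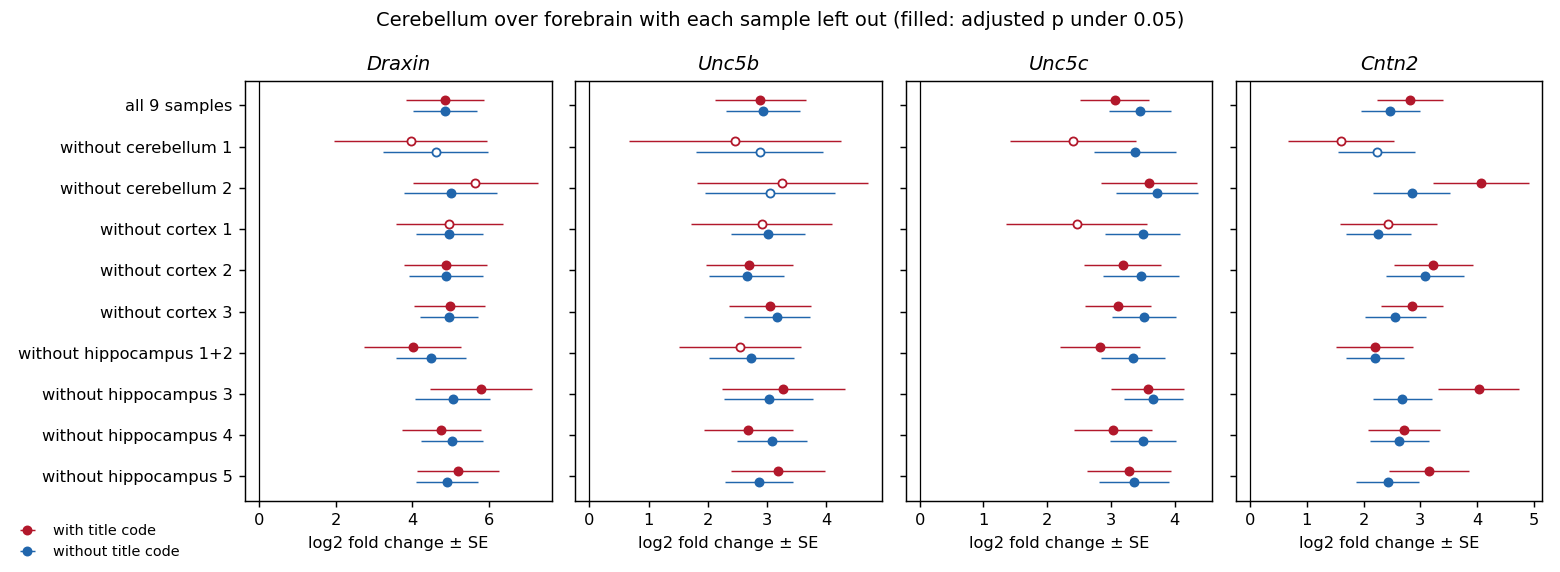
Log2 fold change ± approximate SE of cerebellum over forebrain (horizontal axis) for Draxin, Unc5b, Unc5c and Cntn2, with all 9 samples and with each sample left out, fitted with the title code (red) and without it (blue). Filled points have an edgeR adjusted p under 0.05. All points are above 0, and the open points without cerebellum 1 or cortex 1 show where calls were lost.

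Most other genes of the pathway had too few counts to be tested. Of 15 ligands of these and neighbouring receptors, 4 passed the filter (Nell2, Flrt1, Flrt2 and Slit2) and 0 were called over forebrain in either direction by edgeR, with 2 of them, Flrt1 and Flrt2, at an unadjusted p under 0.05. Of all 1720 rows tested, 310 had an unadjusted p under 0.05 there. The median log2 difference of the 4 tested ligands was -1.30, against 0.0023 over all rows. Ntn1, the founding netrin, missed the filter at 21 counts, with 59.3 ± 5.0 CPM in cerebellum (SD, n = 2) and 9.92 ± 16.8 CPM in forebrain (SD, n = 7). Both cerebellum samples of Ntn1, at 55.73 and 62.86 CPM, were above the highest forebrain sample, at 45.57 CPM. That value is 1 count in hippocampus 4, so the gap is within counting error. Of the 13656 rows with at least 10 counts, 3.37% were above in this way. Slit2 had 75.0 ± 27.3 CPM in cerebellum and 148.8 ± 60.2 CPM in forebrain, and its log2 difference was -1.11 (SE 0.70, adjusted p = 0.459). Of 8 other netrin and Slit receptors, 3 were tested and 0 called by edgeR, also at an unadjusted p under 0.05. Dscam, a further netrin receptor, had 425.7 ± 64.7 CPM in cerebellum and 368.9 ± 344 CPM in forebrain (log2 difference -0.21, adjusted p = 0.924). Neo1, the closest relative of Dcc, had 240.9 ± 119 CPM in cerebellum and 188.5 ± 109 CPM in forebrain (0.41, adjusted p = 0.821).

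Among 13 other Eph receptors, 5 were tested, 0 were called higher and 2 lower in cerebellum than in forebrain. Over all 1720 rows tested, 3.9% were called higher and 3.78% lower. Epha5 fell by 2.79 on the log2 scale (SE 0.63, adjusted p = 0.000507), with 56.8 ± 8.6 CPM in cerebellum and 238.6 ± 135 CPM in forebrain. Epha4, which binds both ephrin classes, fell by 2.50 (SE 0.65, adjusted p = 0.00407), with 43.8 ± 2.6 CPM in cerebellum and 263.6 ± 140 CPM in forebrain. Epha5 and Epha4 passed the filter only through forebrain samples, as their cerebellum values reached no more than 62.86 and 45.6 CPM. Ephb2 had 349.2 ± 128 CPM in cerebellum and 94.7 ± 40.0 CPM in forebrain, and was not called (log2 difference 1.45, SE 0.57, adjusted p = 0.101). None of the 8 ephrin genes passed the filter. Of 13 contactins, L1 family members and their partners, relatives of Cntn2, 5 were tested and 0 called by edgeR or at an unadjusted p under 0.05, with a median log2 difference of 0.06. Cntn1 had 218.9 ± 1.5 CPM in cerebellum and 195.0 ± 150 CPM in forebrain.

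Of 33 cytoplasmic effectors of guidance receptors, 17 were tested, and 1 was called higher and 0 lower over forebrain. Over all 1720 rows tested, 3.9% were called higher and 3.78% lower, so 1 of 17 is near that share. The effector called was Trim67, a ubiquitin ligase that binds Dcc. It had 636.3 ± 18.7 CPM in cerebellum and 102.0 ± 24.7 CPM in forebrain, a log2 difference of 2.51 (SE 0.55, adjusted p = 0.000363). Trim67 passed the filter only through the cerebellum samples, as its forebrain values reached no more than 145.8 CPM. Its relative Trim9 had 198.3 ± 1.0 CPM in cerebellum and 401.8 ± 240 CPM in forebrain (log2 difference -1.16, SE 0.51, adjusted p = 0.176). Ablim1, an actin-binding protein, was called over hippocampus only, at a log2 difference of 1.72 (SE 0.54, adjusted p = 0.0268), while over cortex it was 1.44 (SE 0.73, adjusted p = 0.343). The difference between these contrasts, cortex against hippocampus, was not called (adjusted p = 0.999). Srgap3, a Robo effector, had 409.1 ± 30.4 CPM in cerebellum and 592.8 ± 352 CPM in forebrain and was not called (adjusted p = 0.792).

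Markers of several cell types differed between the same groups. For scale, 3.9% of all 1720 rows tested were called higher over forebrain and 3.78% lower. A row can pass the filter on low counts through the group where it is high, so counts of calls in these lists are no test. Among granule cell markers, Fat2, Grm4 and Zic1 needed the cerebellum samples to pass. The tested telencephalic markers passed only through forebrain, with cerebellum values of no more than 50.66 CPM. Of the 15 granule cell markers, 5 were tested and 4 called higher over forebrain, with the list at 7318 ± 985 CPM in cerebellum and 990 ± 177 CPM in forebrain (sum over the list, SD). Fat2 had 3436 ± 919 CPM in cerebellum and 112.9 ± 147 CPM in forebrain. Of 11 Purkinje cell markers, 3 were tested and 1 called higher, Itpr1, with the list at 3422 ± 305 CPM in cerebellum and 921 ± 212 CPM in forebrain. Itpr1 alone had 2708 ± 111 CPM in cerebellum and 574.5 ± 289 CPM in forebrain and so made up most of that sum, while Ppp1r17 had 20.4 ± 14.1 CPM in cerebellum and 28.9 ± 61.7 CPM in forebrain. Of 12 telencephalic excitatory markers, 8 were tested and 7 called lower, with the list at 261.8 ± 74.0 CPM in cerebellum and 2668 ± 751 CPM in forebrain. Of 10 astrocyte markers, 6 were tested and 2 called lower, at 1689 ± 4 CPM in cerebellum and 3995 ± 1592 CPM in forebrain. That gap came mostly from Slc1a2, with 601.0 ± 83.4 CPM in cerebellum and 2905 ± 1475 CPM in forebrain. Gfap had 198.3 ± 1.0 CPM in cerebellum and 57.2 ± 45.4 CPM in forebrain, and Aqp4 188.2 ± 15.4 and 69.4 ± 46.7 CPM, so these defining markers had higher means in cerebellum. Of 10 interneuron markers, 3 were tested and 1 called higher (Reln), at 1299 ± 104 CPM in cerebellum and 800.3 ± 116 CPM in forebrain. Reln had 648.0 ± 136 CPM in cerebellum and 217.4 ± 86.5 CPM in forebrain, and Erbb4 423.3 ± 82.8 and 121.8 ± 60.1 CPM, whereas Gad2, which defines GABAergic neurons, had 58.8 ± 38.7 CPM in cerebellum and 196.7 ± 65.8 CPM in forebrain. Each of these lists except the interneuron list had every gene detected in both groups. The part of cell composition in the differences of the guidance genes was not tested.

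Oligodendrocyte markers, 12 genes with 2 tested and 0 called, summed to 953.3 and 1383 CPM in cerebellum and 336.2 to 1058 CPM in forebrain. Microglia markers summed to 86.1 and 94.3 CPM in cerebellum and 32.6 to 162 CPM in forebrain, and no microglial or endothelial marker passed the filter. Cortical neuron markers, 10 genes with 5 tested, had 1 called lower in cerebellum (Bcl11b). Hippocampal neuron markers, 9 genes in the table with 5 tested, had 1 called higher in cerebellum (Il16). Il16 had 342.2 ± 24.7 CPM in cerebellum and 22.4 ± 20.8 CPM in forebrain. It passed the filter only through the cerebellum samples, as its forebrain values reached no more than 46.44 CPM. Bcl11b passed only through forebrain, with at most 10.48 CPM in cerebellum.

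Across the 9 samples, the genes with the pattern most like each member were ranked by Pearson correlation of log2 CPM. These correlations are descriptions: the points share libraries and depth, and the cerebellum samples stand apart from the rest. For Unc5c the closest was Trim67 (0.932), and Kcnc1 had 0.93. For Unc5b the closest were Atp2b3 (0.972), Cux1 (0.959) and Fat2 (0.955), and for Draxin Nos1 (0.979), Itsn1 (0.943) and Galnt15 (0.931). Itsn1 was also closest to Cntn2 (0.937). For Epha6 they were Gm26871 (0.894) and Slit2 (0.887), and for Unc5a Grm5 (0.954). Robo1 and Robo2 had less close neighbours, Gucy1a2 (0.88) and Myo16 (0.855). Among the members, Unc5b and Unc5c had 0.936 and Draxin and Cntn2 0.91, while Robo2 and Epha6 had -0.675.

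The levels of some of these genes are given for description. They were picked by likeness over the same 9 samples, so a like order of regions adds no support. Trim67 averaged 636.3 CPM over the cerebellum samples, against 102.4 CPM over the cortex and 101.6 CPM over the hippocampus samples, and like Unc5c it had forebrain means within the spread of each other. Nos1, the neuronal nitric oxide synthase, had 404.1 ± 23.3 CPM in cerebellum, against 90.4 ± 6.8 CPM for the cortex and 168.2 ± 49.5 CPM for the hippocampus, the same order of regions as Draxin and Cntn2. Slit2, the ligand of Robo receptors, averaged 75.0 CPM over the cerebellum samples, against 106.5 CPM over the cortex and 180.6 CPM over the hippocampus samples, the same order as Epha6. The SD over the cortex samples was 57.67 CPM for Slit2 and 228.6 CPM for Epha6, so the place of cortex in this order is not settled.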

How the data were processed

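Per the labels' protocols, fragments bound to FMRP were obtained by crosslinking and immunoprecipitation from cerebellum, cortex and hippocampus on postnatal day 13. The authors deposited whole-number fragment counts per gene symbol, which were used as deposited, with 0 sample columns unused. The submitters' processing notes name mm10, Bowtie 0.12.7 and Picard. The counting program, annotation, use of strand, duplicate removal and treatment of multiply matching fragments are not stated in any source used here.

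CPM are counts divided by library totals. Hippocampus 1 and 2 were summed, because their counts differed within sampling noise (chi-square over its degrees of freedom 1.03, with p = 0.192 for 1873 rows, against 1.49 to 8.62 in the other 13 same-region pairs). A library whose title names cortex and whose tissue label names hippocampus was left out. The test was edgeR's quasi-likelihood test (edgeR 4.0.16, R 4.3.3) using TMM factors, filterByExpr by region, region and title code as terms, 4 residual degrees of freedom, and Benjamini-Hochberg adjustment over 1720 rows at 0.05. Forebrain is the mean of the fitted cortex and hippocampus. SEs are the log2 fold change divided by the root of F, and approximate. Dcc and Unc5d missed the filter and had exact permutation tests on CPM. Of the alternatives, DESeq2 1.42.0 was another count test. Fits were tested on simulated counts. Intervals are exact binomial at 95%, floors are 3 counts, and both cover counting error only. Nothing in the labels ties samples to animals, and p-values thus measure only a spread among samples that may be technical. Same-code samples deviated together weakly (median correlation 0.132 over 8 pairs, from -0.0669 to 0.484, against -0.0499 over 18 pairs of different codes). Likeness is the Pearson correlation of log2 CPM (TMM, prior count 2). All 10 members are named. Of pathway lists, called genes and the highest 3 by mean CPM could be named, and of marker lists the highest 3. Il16, Bcl11b, Ntn1, Gfap, Aqp4 and Ppp1r17 were named after their values were seen. Trim9, Cntn1 and Fezf2 were also named outside this rule. Members and lists were chosen with earlier results of these data known. Sequences come from GENCODE M21 transcripts, handled in Python 3.11.15.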

Additional observations from a re-analysis of the deposited data

Results flagged for a closer look

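A library whose title names cortex and whose tissue label names hippocampus entered no comparison, and members were counted in it above the limit of 3 counts that a count of 0 allows. With 30344 counts in all, 1 count was worth 32.96 CPM. Unc5c had 5 counts, Unc5d 6, Robo1 7, Robo2 8 and Epha6 6. Draxin had 0 counts there, and the limit that this allows is 98.87 CPM.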

How the results depend on the processing

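Over forebrain, 132 rows and 4 members were called. Library totals alone gave 54 rows, DESeq2 87, the libraries with s titles only 85, and leaving out the 3 samples richest in predicted genes, without the title code, 253, each with 4 members except DESeq2, under which Unc5b had an adjusted p of 0.0565. With no filter on low counts, 1 row and 0 members were called. Over cortex (79 rows, 3 members) these settings gave 16, 43, 5 and 201 rows and, unfiltered, 0, with 2 members for library totals (Unc5c lost, adjusted p = 0.108) and DESeq2 (no adjusted p for Draxin) and 0 for the s titles and unfiltered. Over hippocampus (110 rows, 5 members) library totals gave 45 rows and 3 members, DESeq2 70 and 1, unfiltered 0 and 0, s titles 3 members, and 10 separate libraries 187 rows. For cortex against hippocampus (0 rows), DESeq2, its size factors and 10 separate libraries gave 1 row each. Without the replicate block of title codes, 156 rows and 4 members were called over forebrain, and 3 members over hippocampus, where Cntn2 and Epha6 were lost. Leaving out 1 sample gave 2 to 184 rows and 0 to 4 members over forebrain, 0 to 131 and 0 to 4 over cortex, 3 to 191 and 0 to 5 over hippocampus, and 0 to 1 and 0 for cortex against hippocampus. No called difference of a member changed sign, while uncalled ones did: without the title code, Robo1 over forebrain ran from -0.55 to 0.28 with 1 sample left out. The cause of the changes was not tested. Totals of 11898 to 55784 counts in 5 of 7 forebrain samples limit what is detectable.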
